A study of Mus musculus with 9 samples.

Results

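The genes described are 10 genes of monoamine synthesis, uptake, storage and breakdown, taken by name from a table of 21899 mouse genes. They comprise the biosynthetic enzymes Th, Ddc, Dbh and Tph2, the serotonergic transcription factor Fev, the plasma membrane transporters Slc6a3, Slc6a2 and Slc6a4, the vesicular transporter Slc18a2, and the degrading enzyme Maoa. All 10 were in the table, and 9 had enough reads to be tested; Fev did not.

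Tissue dissected from the PVT (paraventricular nucleus of the thalamus), a midline cell group linked to wakefulness, was sequenced from wild-type (WT) mice. LPS, a bacterial cell wall component that triggers systemic inflammation, or PBS, its vehicle, had been injected into the peritoneal cavity. The groups were LPS at 7 days (LPS 7d), LPS at 1 day (LPS 1d) and PBS at 1 day (PBS 1d), with 3 libraries each. A PBS group at 7 days was not analysed here, and the day of harvest and the treatment cannot be told apart between LPS 7d and PBS 1d. The labels give no age, sex or strain, and do not say that the 3 libraries of a group came from separate animals, so the p-values measure only how much these samples vary, in part perhaps technically.

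Dopamine, noradrenaline and serotonin are made by neurons whose cell bodies lie mainly in the midbrain and brainstem, with further dopaminergic groups in the hypothalamus and olfactory bulb. Their axons reach most of the forebrain, and the PVT receives such input. Tyrosine hydroxylase or tryptophan hydroxylase starts synthesis, aromatic amino acid decarboxylase completes dopamine and serotonin, and dopamine beta-hydroxylase turns dopamine into noradrenaline. Released transmitter is taken back by a transporter that marks each system, packed into vesicles, or oxidised by monoamine oxidase. In bulk tissue, fewer cells of a type and less RNA per cell cannot be told apart.

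Libraries held 13211422 to 17210526 gene counts. All 9 thalamus marker genes checked were detected in every group, with a summed level of 975 to 1002 CPM (counts scaled to library size) in LPS 7d libraries, 853 to 862 CPM in LPS 1d libraries and 929 to 943 CPM in PBS 1d libraries. Zic1 (246 CPM in LPS 7d, 78.3 CPM in LPS 1d and 96.3 CPM in PBS 1d) and Calb2 (160, 73.7 and 97.1 CPM in those groups) carried the LPS 7d sum. The other 7 lay lower in LPS 7d than in PBS 1d without overlap, as did 22.7% of all tested genes. The LPS 7d libraries stood apart by markers of other regions. Gabra6, which encodes a GABA receptor subunit that cerebellar granule cells express, averaged 164 ± 3.82 CPM in LPS 7d, 0.0203 ± 0.0351 CPM in LPS 1d and 0.0861 ± 0.0435 CPM in PBS 1d (SD, n = 3 each). Summed hindbrain markers, which are Hox genes and the glycine transporter Slc6a5, reached 61.9 to 68.2 CPM in LPS 7d, 0.374 to 0.791 CPM in LPS 1d and 0.294 to 0.443 CPM in PBS 1d, with 0, 6 and 8 of the 9 genes at 0 in those groups. Summed levels of 4 Y-linked genes were 90.5 to 102 CPM in LPS 7d, 81.4 to 85.2 CPM in LPS 1d and 0 to 0.0587 CPM in PBS 1d, so LPS libraries held Y-linked transcripts and PBS libraries nearly none. Every comparison with PBS 1d therefore also compares libraries that differ in Y-linked expression, and treatment and sex cannot be told apart there.

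The sequences just upstream of 5 members are shown because these genes mark the dopaminergic, noradrenergic and serotonergic systems that the results turn on. RefSeq's promoter table (GRCm38.p6) matched 9 of the 10 members. The 250 bases before the transcription start are given on the gene's own strand, with GRCm38.p6 coordinates and the strand in brackets. Capitals mark letters that matched one of 5 motifs searched on both strands.
Th, chr7:142899996-142900245 (-): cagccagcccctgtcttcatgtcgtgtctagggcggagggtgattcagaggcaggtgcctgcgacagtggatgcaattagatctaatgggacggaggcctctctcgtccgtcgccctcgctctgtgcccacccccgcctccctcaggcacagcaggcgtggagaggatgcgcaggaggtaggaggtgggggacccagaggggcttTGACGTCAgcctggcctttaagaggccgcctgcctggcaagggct
Tph2, chr10:115185023-115185272 (-): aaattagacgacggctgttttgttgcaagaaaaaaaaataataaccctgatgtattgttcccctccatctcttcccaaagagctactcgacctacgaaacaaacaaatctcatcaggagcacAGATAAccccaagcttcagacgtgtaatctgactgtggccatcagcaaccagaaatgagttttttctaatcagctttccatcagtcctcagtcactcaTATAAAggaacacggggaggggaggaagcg
Dbh, chr2:27165257-27165506 (+): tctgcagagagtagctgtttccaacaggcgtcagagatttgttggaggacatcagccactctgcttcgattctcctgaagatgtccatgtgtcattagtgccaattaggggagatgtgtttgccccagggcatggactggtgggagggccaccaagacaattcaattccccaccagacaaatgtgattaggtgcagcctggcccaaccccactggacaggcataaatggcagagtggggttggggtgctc
Slc6a3, chr13:73536497-73536746 (+): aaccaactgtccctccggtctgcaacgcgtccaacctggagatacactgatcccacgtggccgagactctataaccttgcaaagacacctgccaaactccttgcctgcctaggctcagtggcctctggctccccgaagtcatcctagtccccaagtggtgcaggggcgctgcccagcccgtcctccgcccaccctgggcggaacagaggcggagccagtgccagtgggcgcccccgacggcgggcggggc
Slc6a4, chr11:76998347-76998596 (+): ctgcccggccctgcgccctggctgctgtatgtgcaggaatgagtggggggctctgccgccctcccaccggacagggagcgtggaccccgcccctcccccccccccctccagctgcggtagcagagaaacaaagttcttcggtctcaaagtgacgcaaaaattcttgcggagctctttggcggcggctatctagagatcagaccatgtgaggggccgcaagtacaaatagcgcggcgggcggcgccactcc
The cAMP response element was searched as TGACGTCA. It was found in Th, with its first base at -45 from the start, and in 1.55% of 32851 promoter windows of this length. The TATA box was searched as TATAAA, which 12.4% of windows hold, and Tph2 held it at -30. The GATA factor motif was searched as AGATAA, which 9.99% of windows hold, and Tph2 held it at -128. The homeodomain motif was searched as TAATTA and was present in 4.84% of windows. The ETS factor motif was searched as GGAAGT and was present in 19.7% of windows. No motif overlapped another in these members. Dbh, Slc6a3, Slc6a4 and Maoa held none of the 5 in this window. Of the members not printed, Fev held the GATA motif at -118 and the homeodomain motif at -69, Slc18a2 held the reverse complement of the GATA motif at -230, and 1 of the Ddc windows held that of the TATA box at -68. These are matches of letters, not sites shown to be used.

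The 10 genes together were at 129 to 142 CPM in LPS 7d libraries, 85.7 to 92.4 CPM in LPS 1d libraries and 81.5 to 88.2 CPM in PBS 1d libraries. Against PBS 1d, LPS 7d libraries were higher for all 9 tested members by edgeR's quasi-likelihood test (Benjamini-Hochberg adjusted p under 0.05 over all 14837 genes tested), where 16.8% of tested genes were called higher, 18.9% lower and 35.6% either way. Against LPS 1d, LPS 7d libraries were higher for 8, all but Maoa, where 27.5% of tested genes were called higher, 29.1% lower and 56.6% either way. LPS 1d libraries differed from PBS 1d for 3, with Slc6a3 and Slc6a2 higher and Dbh lower (Slc6a2 and Dbh were not tested when only those groups were fitted), where 24.9% of tested genes were called higher, 24.2% lower and 49.1% either way. The libraries of LPS 7d lay above those of PBS 1d without overlap for all 9, where 21.5% of tested genes lay above and 22.7% below. They lay above those of LPS 1d for 8, where 29.5% of tested genes lay above and 31.1% below. LPS 1d libraries lay above those of PBS 1d for 1 member and below them for 1, where 27.4% of tested genes lay above and 27.1% below. The balance of higher to lower calls over all genes turned with the scaling in all 3 comparisons. With TMM factors (library scaling by trimmed means), 2489 genes were called higher and 2798 lower in LPS 7d against PBS 1d. With library totals alone 3183 were higher and 2326 lower, and with upper-quartile factors 2522 and 2761, the same balance as with TMM factors. In LPS 7d against LPS 1d the counts were 4076 higher and 4323 lower with TMM factors, 4867 and 3680 with library totals, and 4396 and 4046 with upper-quartile factors. In LPS 1d against PBS 1d they were 3699 higher and 3590 lower with TMM factors, 3446 and 3878 with library totals, and 3397 and 3935 with upper-quartile factors. DESeq2 kept the balance of the TMM factors in all 3 comparisons. It gave 2259 higher and 2475 lower in LPS 7d against PBS 1d and 3839 and 3987 in LPS 7d against LPS 1d. In LPS 1d against PBS 1d it gave 3388 and 3215. Under library totals, upper-quartile factors and DESeq2 the 9 members kept their call and direction against PBS 1d.

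Slc6a4, Tph2, Slc6a2 and Dbh passed the low-count filter only through the LPS 7d libraries. The minimum of 0.629 CPM was reached in 3 LPS 7d libraries for each of them, in 0, 1, 1 and 0 LPS 1d libraries and in 0, 0, 0 and 2 PBS 1d libraries. Those genes had to be higher in LPS 7d to be tested at all, so the counts of called members are not read as evidence. Nor are the LPS 7d calls and adjusted p-values of those genes, with all libraries or with 1 left out. They are given below as a description. The other 5 tested members reached the minimum in every library. The comparisons of LPS 7d share their libraries with each other, and so do those against PBS 1d.

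**Figure D1:**
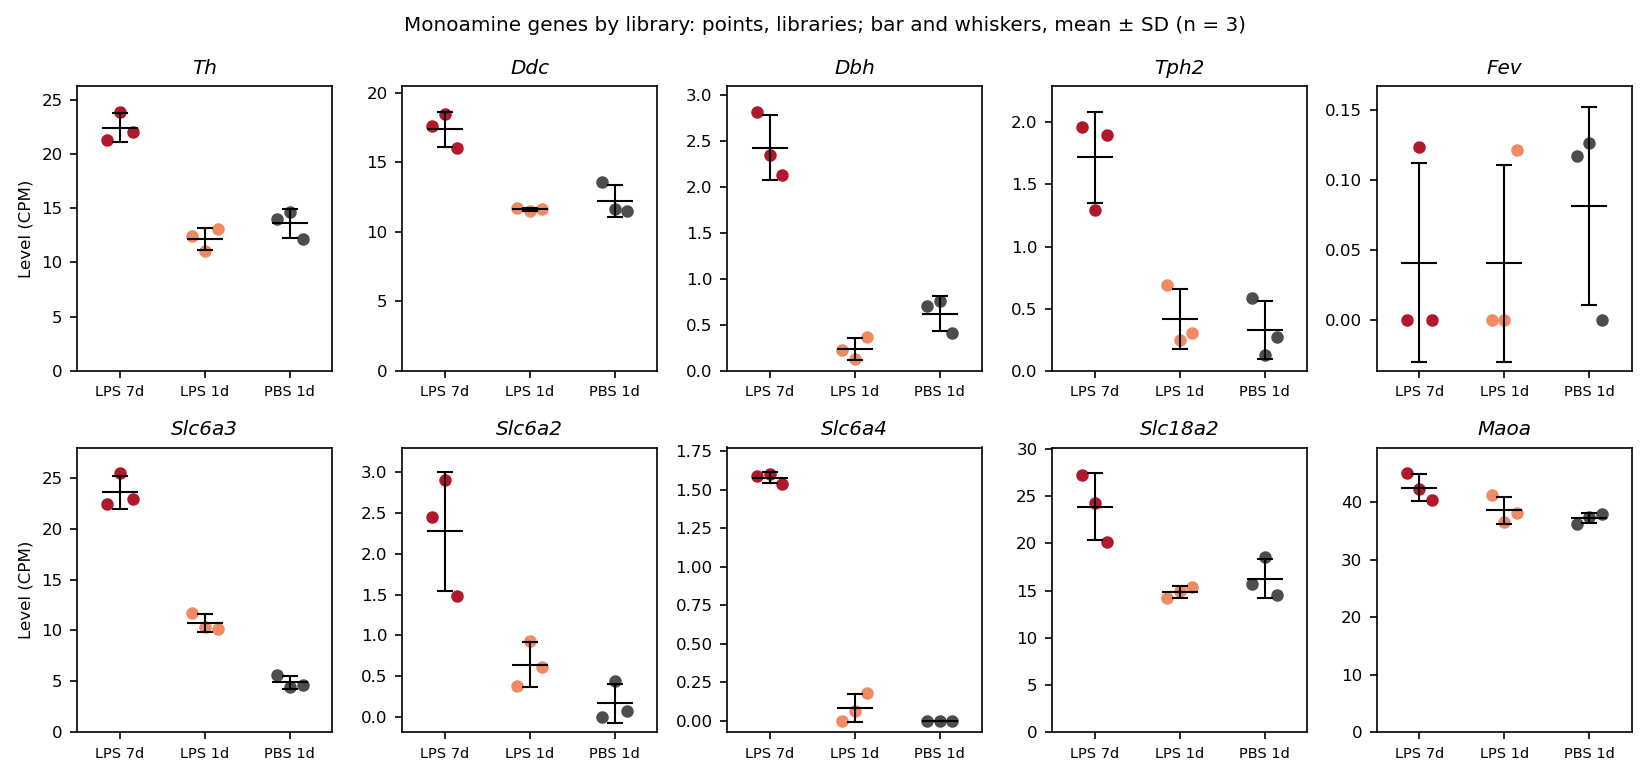
Level of each monoamine gene in every library, in CPM on a linear axis, with the bar and whiskers showing the mean ± SD of 3 libraries in LPS 7d, LPS 1d and PBS 1d. All LPS 7d points lie above both other groups except for Fev and Maoa, and Slc6a3 falls into 3 separate levels at 23.6, 10.7 and 4.92 CPM.

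Tyrosine hydroxylase (Th, ENSMUSG00000000214, chr7:142446489-142484865 on the minus strand; all members are placed on GRCm39), the rate-limiting enzyme of catecholamine synthesis, stood at 21.3, 23.9 and 22.1 CPM in the LPS 7d libraries. It stood at 12.4, 11.1 and 13.1 CPM in LPS 1d libraries, against 14.0, 14.7 and 12.1 CPM in PBS 1d libraries. The LPS 7d libraries lay above both other groups without overlap, while LPS 1d and PBS 1d overlapped. The log2 fold change was 0.72 ± 0.10 for LPS 7d against PBS 1d (SE, edgeR adjusted p = 3.54e-08), a 1.64-fold higher level, and 0.88 ± 0.10 for LPS 7d against LPS 1d (edgeR adjusted p = 1.66e-10). For LPS 1d against PBS 1d it was -0.16 ± 0.11 (edgeR adjusted p = 0.214), with a 95% interval of -0.37 to 0.05.

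Aromatic amino acid decarboxylase (Ddc, ENSMUSG00000020182, chr11:11764101-11848144, minus strand), which serves dopamine and serotonin synthesis alike, was also higher in LPS 7d than in either other group. Its levels were 17.6, 18.5 and 16.0 CPM in LPS 7d, 11.7, 11.5 and 11.6 CPM in LPS 1d, and 13.6, 11.6 and 11.5 CPM in PBS 1d. The log2 fold change was 0.50 ± 0.10 for LPS 7d against PBS 1d (edgeR adjusted p = 0.000108) and 0.58 ± 0.11 for LPS 7d against LPS 1d (edgeR adjusted p = 6.77e-06). LPS 1d and PBS 1d overlapped, with a log2 fold change of -0.08 ± 0.11 (edgeR adjusted p = 0.579).

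Dopamine beta-hydroxylase (Dbh, ENSMUSG00000000889, chr2:27055245-27073212, plus strand), which makes noradrenaline and so marks noradrenergic and adrenergic cells, was read rarely outside LPS 7d. The libraries held 46, 38 and 36 reads in LPS 7d, 3, 2 and 6 in LPS 1d, and 12, 12 and 6 in PBS 1d. LPS 7d lay above both other groups, and the LPS 1d and PBS 1d libraries met at 6 reads without overlapping after scaling. Dbh averaged 2.43 ± 0.352 CPM in LPS 7d, 0.240 ± 0.120 CPM in LPS 1d and 0.624 ± 0.189 CPM in PBS 1d. Dbh was tested only through LPS 7d, so its LPS 7d differences are given as a description. The log2 fold change was 1.93 ± 0.36 for LPS 7d against PBS 1d (edgeR adjusted p = 1.49e-05) and 3.29 ± 0.44 for LPS 7d against LPS 1d (edgeR adjusted p = 7.45e-09). Dbh was lower in LPS 1d than in PBS 1d, by 1.35 ± 0.56 on the log2 scale (edgeR adjusted p = 0.0397). That call was lost without any of 4 libraries, with adjusted p of 0.102 without PBS 1d replicate 1, 0.121 without PBS 1d replicate 2, 0.0779 without LPS 1d replicate 1 and 0.163 without LPS 1d replicate 2. With only the LPS 1d and PBS 1d libraries fitted, Dbh did not pass the low-count filter and was not tested.

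Tryptophan hydroxylase 2 (Tph2, ENSMUSG00000006764, chr10:114914546-115020927, minus strand) is the neuronal enzyme that starts serotonin synthesis. It had 32, 21 and 32 reads in LPS 7d libraries, 9, 4 and 5 in LPS 1d libraries, and 10, 2 and 4 in PBS 1d libraries. LPS 7d lay above both other groups, which overlapped each other. Mean levels were 1.72 ± 0.366 CPM in LPS 7d, 0.416 ± 0.242 CPM in LPS 1d and 0.329 ± 0.235 CPM in PBS 1d. The log2 fold change was 2.33 ± 0.46 for LPS 7d against PBS 1d (edgeR adjusted p = 4.08e-05) and 3.07 without PBS 1d replicate 1, and it was 2.09 ± 0.45 against LPS 1d (edgeR adjusted p = 8.32e-05). For LPS 1d against PBS 1d it was 0.24 ± 0.61 (edgeR adjusted p = 0.767), and its sign turned without LPS 1d replicate 1 or PBS 1d replicate 2. Tph2 was tested only through LPS 7d, so its LPS 7d differences are given as a description.

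Fev (ENSMUSG00000055197, chr1:74920668-74924578, minus strand), also known as Pet-1, is a transcription factor that maintains the identity of serotonergic neurons. It had 0, 2 and 0 reads in LPS 7d, 0, 0 and 2 in LPS 1d, and 2, 2 and 0 in PBS 1d. The ratio of summed levels was 0.480 for LPS 7d to PBS 1d (95% counting interval 0.0435 to 3.35), 0.920 for LPS 7d to LPS 1d (0.0667 to 12.7) and 0.522 for LPS 1d to PBS 1d (0.0473 to 3.64). A difference in Fev was not detectable at this depth, and the intervals cover counting error only.

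The dopamine transporter Slc6a3 (ENSMUSG00000021609, chr13:73684866-73726791, plus strand), which returns dopamine to the nerve terminal, had a separate level in each group. It stood at 22.4, 25.4 and 22.9 CPM in LPS 7d libraries, 11.7, 10.3 and 10.1 CPM in LPS 1d libraries, and 5.64, 4.49 and 4.63 CPM in PBS 1d libraries. No group overlapped another. Slc6a3 was higher in LPS 1d than in PBS 1d, by 1.11 ± 0.13 on the log2 scale (edgeR adjusted p = 1.13e-09), a 2.15-fold higher level. Those groups also differed in Y-linked expression, so treatment and sex cannot be told apart in that difference. Leaving out each library in turn gave log2 fold changes of 1.04 to 1.22 for LPS 1d against PBS 1d, and a fit without the LPS 7d libraries gave 1.11. In LPS 7d it was higher by a further 1.14 ± 0.11 against LPS 1d (edgeR adjusted p = 2.96e-13) and by 2.25 ± 0.12 against PBS 1d (edgeR adjusted p = 5.12e-22).

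The markers of other regions moved differently between LPS 1d and PBS 1d. Summed striatal markers were at 778 to 800 CPM in LPS 1d and 1173 to 1222 CPM in PBS 1d, hypothalamic markers at 75.5 to 78.3 CPM in LPS 1d and 115 to 133 CPM in PBS 1d, and midbrain markers at 8.01 to 9.37 CPM in LPS 1d and 9.99 to 10.2 CPM in PBS 1d. Called lower in LPS 1d were 6 of 7 striatal and 8 of 10 hypothalamic markers, but none of the 6 midbrain markers was called. Of all tested genes 24.2% were called lower and 49.1% either way in that comparison. The midbrain markers En1 (0.452 CPM in LPS 1d and 0.283 CPM in PBS 1d) and Pax5 (0.485 CPM in LPS 1d and 0.296 CPM in PBS 1d) were at higher means in LPS 1d. Over the group these were 20 reads in LPS 1d and 13 in PBS 1d for En1, and 22 and 14 for Pax5. Lower means in LPS 1d than in PBS 1d were held by En2 (1.24 and 1.64 CPM), Pax7 (0.401 and 0.754 CPM), Tfap2d (1.09 and 1.59 CPM) and Otx2 (4.84 and 5.55 CPM). The part of these regions in the Slc6a3 result was not tested.

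The noradrenaline transporter Slc6a2 (ENSMUSG00000055368, chr8:93686707-93728295, plus strand) had 40, 47 and 25 reads in LPS 7d, 5, 15 and 10 in LPS 1d, and 0, 7 and 1 in PBS 1d. LPS 7d lay above both other groups, and LPS 1d overlapped with PBS 1d. Its mean level was 2.28 ± 0.726 CPM in LPS 7d, 0.643 ± 0.276 CPM in LPS 1d and 0.170 ± 0.238 CPM in PBS 1d. Slc6a2 was tested only through LPS 7d, so its LPS 7d differences are given as a description. LPS 7d was higher by 1.78 ± 0.40 on the log2 scale against LPS 1d (edgeR adjusted p = 0.000187). Against PBS 1d the log2 fold change was 3.69 ± 0.52 (edgeR adjusted p = 6.71e-08), and it was 3.08 without PBS 1d replicate 1 and 5.85 without PBS 1d replicate 2, which held 7 of the 8 reads in that group. Slc6a2 was also called higher in LPS 1d than in PBS 1d, by 1.91 ± 0.66 (edgeR adjusted p = 0.0144), although the groups overlapped. That value was 1.30 without PBS 1d replicate 1 (edgeR adjusted p = 0.105), 1.59 without PBS 1d replicate 3 (edgeR adjusted p = 0.0650), 1.55 without LPS 1d replicate 2 (edgeR adjusted p = 0.104) and 4.07 without PBS 1d replicate 2.

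The serotonin transporter Slc6a4 (ENSMUSG00000020838, chr11:76889429-76923166, plus strand), which clears released serotonin, was read 26 times in each LPS 7d library. It had 0, 1 and 3 reads in LPS 1d libraries and none in PBS 1d libraries. Slc6a4 was tested only through LPS 7d, so its LPS 7d differences are given as a description. With 3 counts over the PBS 1d group as the floor (0.0631 CPM), the LPS 7d level of 1.58 ± 0.0354 CPM was 25.0 times that floor (edgeR adjusted p = 5.19e-09 against PBS 1d). The 95% counting interval of the ratio to PBS 1d had a lower limit of 19.8. Against LPS 1d, which averaged 0.0816 ± 0.0928 CPM, the log2 fold change was 4.05 ± 0.62 (edgeR adjusted p = 2.02e-07), and 5.23 without LPS 1d replicate 3, which held 3 of the 4 reads. The ratio of summed levels for that comparison was 17.9, with a 95% counting interval of 6.73 to 67.5. LPS 1d was not called different from PBS 1d (edgeR adjusted p = 0.0876).

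The vesicular monoamine transporter Slc18a2 (ENSMUSG00000025094, chr19:59249328-59284444, plus strand), which all central monoamine neurons use to fill their vesicles, stood at 27.2, 24.2 and 20.2 CPM in LPS 7d. Its levels were 14.2, 14.9 and 15.4 CPM in LPS 1d and 15.7, 18.5 and 14.5 CPM in PBS 1d. LPS 7d lay above both other groups, which overlapped. The log2 fold change was 0.55 ± 0.10 for LPS 7d against PBS 1d (edgeR adjusted p = 1.22e-05), 0.68 ± 0.10 for LPS 7d against LPS 1d (edgeR adjusted p = 1.41e-07) and -0.13 ± 0.11 for LPS 1d against PBS 1d (edgeR adjusted p = 0.324).

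Monoamine oxidase A (Maoa, ENSMUSG00000025037, chrX:16485937-16554057, plus strand), a mitochondrial enzyme found in many cell types besides monoamine neurons, was called between LPS 7d and PBS 1d alone. It stood at 45.0, 42.2 and 40.3 CPM in LPS 7d, 41.1, 36.5 and 38.0 CPM in LPS 1d, and 36.2, 37.4 and 37.9 CPM in PBS 1d. LPS 7d lay above PBS 1d and overlapped with LPS 1d. The log2 fold change was 0.19 ± 0.07 for LPS 7d against PBS 1d (edgeR adjusted p = 0.0230), and the call was lost without PBS 1d replicate 1 (adjusted p = 0.0812) or without LPS 7d replicate 1 (adjusted p = 0.128). It was 0.14 ± 0.07 for LPS 7d against LPS 1d (edgeR adjusted p = 0.0700) and 0.05 ± 0.07 for LPS 1d against PBS 1d (edgeR adjusted p = 0.586), with a 95% interval of -0.09 to 0.19. Under library totals Maoa was called higher in LPS 7d than in LPS 1d, by 0.20 (edgeR adjusted p = 0.0117). Maoa lies on the X chromosome, and the groups also differed in Y-linked expression.

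**Figure D2:**
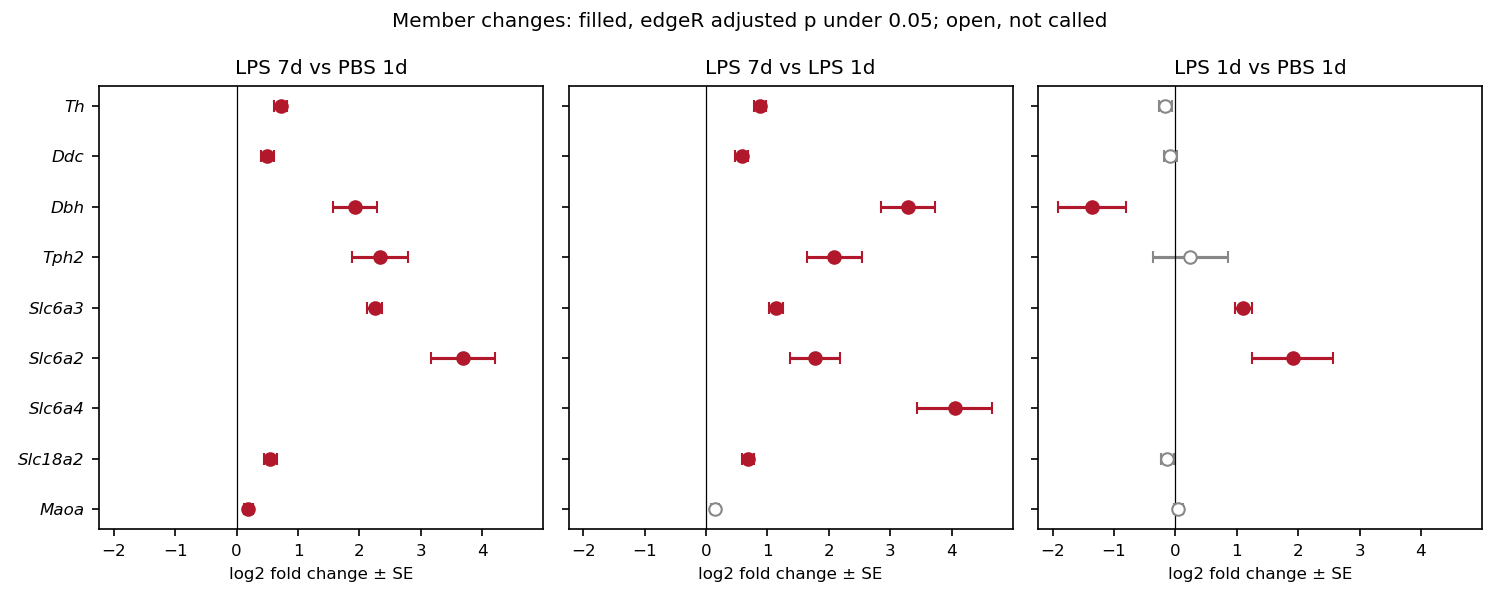
Log2 fold change ± SE of the 9 tested members (x axis) in LPS 7d against PBS 1d, LPS 7d against LPS 1d and LPS 1d against PBS 1d; filled points passed an edgeR adjusted p of 0.05. Slc6a4 is not drawn against PBS 1d, which had no read, and Slc6a3 stands to the right of 0 in all 3 panels with short error bars.

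Per length, as FPKM (reads divided by gene length and by the library sum), the 5 members of highest level differed in their order between groups by the place of Slc6a3. In LPS 7d the order of levels was Maoa at 10.4 ± 0.655 FPKM, Th at 9.69 ± 0.534, Slc6a3 at 6.97 ± 0.464, Slc18a2 at 4.67 ± 0.726 and Ddc at 3.98 ± 0.300. The libraries of Maoa and Th overlapped in that group, and so did those of Slc18a2 and Ddc. In LPS 1d the order was Maoa at 9.09 ± 0.554 FPKM, Th at 5.07 ± 0.419, Slc6a3 at 3.05 ± 0.246, Slc18a2 at 2.79 ± 0.116 and Ddc at 2.56 ± 0.0193, with overlap between Slc6a3 and Slc18a2. In PBS 1d it was Maoa at 8.89 ± 0.251 FPKM, Th at 5.73 ± 0.553, Slc18a2 at 3.10 ± 0.397, Ddc at 2.73 ± 0.243 and Slc6a3 at 1.42 ± 0.173, with overlap between Slc18a2 and Ddc. Slc6a3 thus had rank 3 per length in both LPS groups and rank 5 in PBS 1d.

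The remaining members were all below 1 FPKM. In LPS 7d, Dbh stood at 0.924 ± 0.142 FPKM, above Tph2 at 0.610 ± 0.132, Slc6a2 at 0.370 ± 0.119 and Slc6a4 at 0.356 ± 0.00993, the last 3 overlapping with their neighbours. Fev was last at 0.0259 ± 0.0449 FPKM. In LPS 1d, Tph2, Slc6a2, Dbh, Fev and Slc6a4 ran from 0.142 down to 0.0177 FPKM, and each overlapped with its neighbour. In PBS 1d, Dbh at 0.231 ± 0.0694 FPKM overlapped with Tph2 at 0.113 ± 0.0807, followed by Fev, Slc6a2 and Slc6a4.

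Ratios of FPKM within a library compare members independently of how deep it was sequenced. Per unit of Th, Slc6a3 stood at 0.717, 0.728 and 0.710 in LPS 7d libraries, 0.646, 0.638 and 0.528 in LPS 1d libraries, and 0.275, 0.209 and 0.261 in PBS 1d libraries. No group overlapped another in this ratio. Over 18 comparisons of 6 ratios, an exact two-sided permutation test of 3 libraries against 3 could not go below p = 0.1, which adjusts to 0.164, so no ratio could pass a threshold of 0.05. The ratio of Ddc to Th averaged 0.411 ± 0.0260 in LPS 7d, 0.507 ± 0.0405 in LPS 1d and 0.479 ± 0.0506 in PBS 1d, and LPS 7d overlapped with PBS 1d. The ratio of Slc18a2 to Th averaged 0.483 ± 0.0844 in LPS 7d, 0.553 ± 0.0498 in LPS 1d and 0.540 ± 0.0321 in PBS 1d, and all groups overlapped.

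Maoa per unit of Th averaged 1.08 ± 0.103 in LPS 7d, below 1.80 ± 0.130 in LPS 1d and 1.56 ± 0.184 in PBS 1d without overlap. Slc6a4 per unit of Tph2 averaged 0.606 ± 0.156 in LPS 7d and 0.180 ± 0.192 in LPS 1d, and was 0 in PBS 1d. Slc6a2 per unit of Dbh averaged 0.400 ± 0.118 in LPS 7d, 1.55 ± 1.44 in LPS 1d and 0.107 ± 0.129 in PBS 1d. The LPS 1d value rests on 2 to 6 Dbh reads per library.

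**Figure D3:**
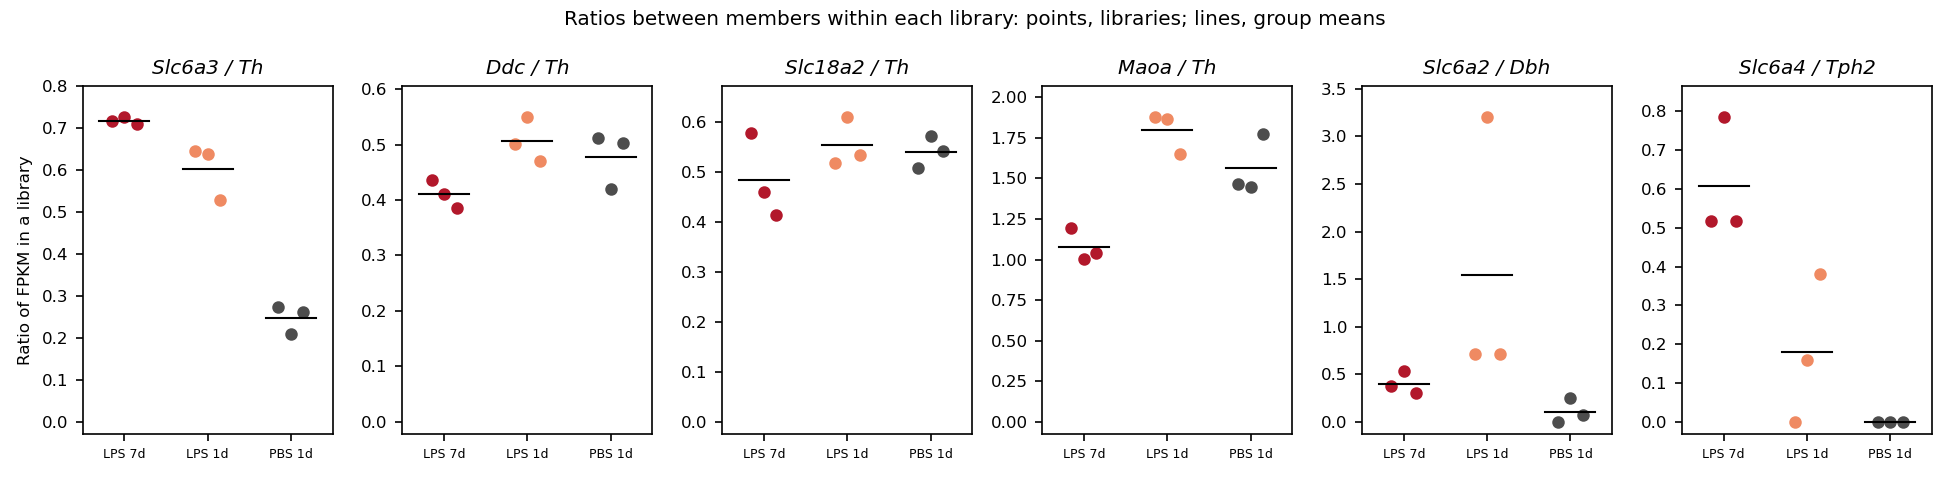
Ratio of FPKM between pairs of members within each library (linear axis, no unit), with points for the 3 libraries of LPS 7d, LPS 1d and PBS 1d and lines for group means. Slc6a3 per unit of Th averages 0.718, 0.604 and 0.248 in these groups without overlap, while Slc18a2 per unit of Th overlaps throughout.

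The marker lists below were chosen with results of these data known. Their counts are to be read beside the shares of all 14837 tested genes. In LPS 7d against PBS 1d 16.8% were called higher, 18.9% lower and 35.6% either way. In LPS 7d against LPS 1d the shares were 27.5%, 29.1% and 56.6%. In LPS 1d against PBS 1d they were 24.9%, 24.2% and 49.1%. Monoamine neurons can also be read through the genes that supply their cofactor, carry or degrade amines, and of 18 such genes 15 were tested. Against PBS 1d, LPS 7d libraries were higher for 6 of the 15 (Aldh1a1, Gchfr, Pts, Qdpr, Slc29a4 and Spr) and lower for none, Gchfr being tested only through its LPS 7d libraries, with a median log2 fold change of 0.24 beside 0.00 over all tested genes. Against LPS 1d, LPS 7d libraries were higher for 10, Gchfr again among them, and lower for none, with a median of 0.47 beside -0.00. Tph1, not tested in the reported fit, was called lower in LPS 7d than in LPS 1d under 8 of 15 alternatives, which were the fit with no low-count filter and 7 that left out a library. In LPS 1d against PBS 1d, none was higher and 10 were lower (among them Aldh1a1, Aldh2, Dnajc12, Maob, Pcbd1, Qdpr, Slc10a4, Slc29a4 and Spr), with a median of -0.28 beside -0.01.

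Aldh1a1, an aldehyde dehydrogenase that marks a subset of midbrain dopaminergic neurons, averaged 95.4 ± 1.53 CPM in LPS 7d, 44.4 ± 3.07 CPM in LPS 1d and 52.5 ± 3.03 CPM in PBS 1d. Qdpr, which regenerates the tetrahydrobiopterin cofactor of the aromatic amino acid hydroxylases, averaged 54.3 ± 2.90 CPM in LPS 7d, 28.5 ± 2.39 CPM in LPS 1d and 38.4 ± 5.26 CPM in PBS 1d. It was lower by 0.43 ± 0.08 on the log2 scale in LPS 1d against PBS 1d (edgeR adjusted p = 1.49e-05), and higher by 0.50 ± 0.07 in LPS 7d against PBS 1d (edgeR adjusted p = 1.81e-07). Slc29a4, a low-affinity monoamine transporter of the plasma membrane, averaged 46.2 ± 3.69 CPM in LPS 7d, 27.4 ± 1.17 CPM in LPS 1d and 31.2 ± 1.53 CPM in PBS 1d. Spr, which completes cofactor synthesis, averaged 28.4 ± 4.17 CPM in LPS 7d, 19.8 ± 0.987 CPM in LPS 1d and 24.2 ± 0.980 CPM in PBS 1d. All 4 passed the test in each of the 3 comparisons as reported, and Spr overlapped between LPS 7d and PBS 1d. The Spr call in that comparison was lost under DESeq2 and without PBS 1d replicate 1 or 2 or LPS 7d replicate 1 or 3. The Slc29a4 call in LPS 1d against PBS 1d was lost under DESeq2 and without PBS 1d replicate 1 or LPS 1d replicate 2 or 3.

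Gch1, the rate-limiting enzyme of the same cofactor, was not called in any comparison, at 2.91 ± 0.790 CPM in LPS 7d, 2.11 ± 0.597 CPM in LPS 1d and 2.04 ± 0.258 CPM in PBS 1d. Its regulatory protein Gchfr had 59 reads in LPS 7d, 4 in LPS 1d and 10 in PBS 1d over the group, and was higher in LPS 7d than in PBS 1d by 2.46 ± 0.56 on the log2 scale (edgeR adjusted p = 0.00035). Gchfr reached the count minimum in no library outside LPS 7d, so it had to be higher there to be tested, and its calls are not read as evidence. The degrading enzyme Maob was not called between LPS 7d and PBS 1d, with a log2 fold change of -0.07 ± 0.07, and it was lower in LPS 1d than in PBS 1d by 0.22 ± 0.07 on the log2 scale (edgeR adjusted p = 0.0119). Tph1, the peripheral and pineal tryptophan hydroxylase, was below the filter with 5 reads in LPS 7d, 31 in LPS 1d and 14 in PBS 1d. Its summed level was 2.31-fold higher in LPS 1d than in PBS 1d (95% counting interval 1.19 to 4.71), and an exact permutation test over the libraries gave p = 0.1, the smallest it allows. In LPS 7d its level was 0.148 times that in LPS 1d (95% counting interval 0.0450 to 0.385; exact permutation p = 0.1). Slc18a1, the vesicular transporter of endocrine cells, had 21 reads in LPS 7d, 36 in LPS 1d and 22 in PBS 1d. Pnmt, which makes adrenaline, had 7 reads in LPS 7d, 3 in LPS 1d and 8 in PBS 1d. Summed pineal markers were at 1.59 to 2.28 CPM in LPS 7d, 2.16 to 2.92 CPM in LPS 1d and 1.47 to 2.25 CPM in PBS 1d, with neither of their 2 tested genes called in any comparison.

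**Figure D4:**
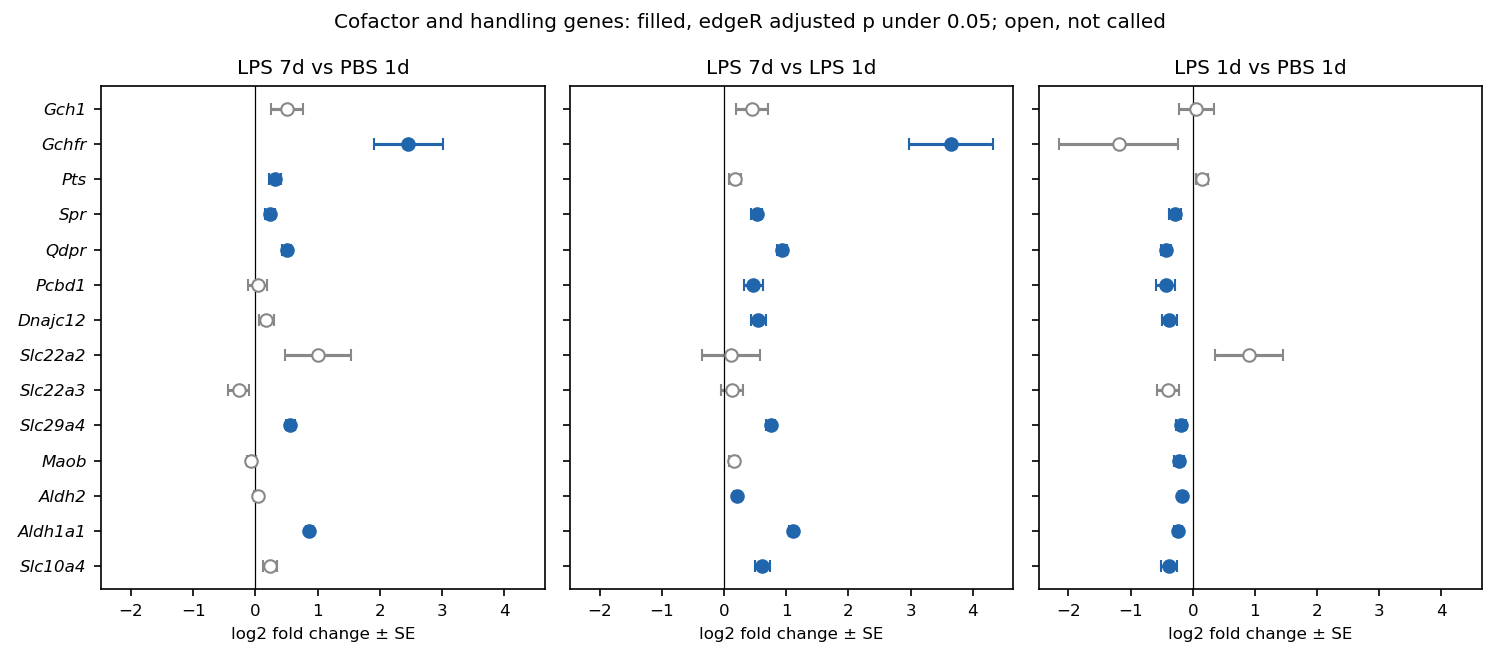
Log2 fold change ± SE (x axis) of tested cofactor, carrier and degrading genes in LPS 7d against PBS 1d, LPS 7d against LPS 1d and LPS 1d against PBS 1d; filled points passed an edgeR adjusted p of 0.05. The filled points lie right of 0 in both LPS 7d panels, with Gchfr farthest at 2.46 and 3.65, and left of 0 in the LPS 1d panel.

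Transcription factors of monoamine neurons did not move as 1 group. Of 15, 12 were tested, and against PBS 1d the LPS 7d libraries were higher for 5 and lower for 1, against LPS 1d higher for 6 and lower for 1. LPS 1d was higher than PBS 1d for 2 and lower for 2. En2, a factor of the midbrain and anterior hindbrain that cerebellar cells also express, averaged 40.5 ± 3.54 CPM in LPS 7d, 1.24 ± 0.537 CPM in LPS 1d and 1.64 ± 0.119 CPM in PBS 1d. Tfap2b averaged 15.8 ± 1.67 CPM in LPS 7d, 1.39 ± 0.414 CPM in LPS 1d and 0.902 ± 0.0733 CPM in PBS 1d. Gata2 stood at 6.17 ± 1.41 CPM in LPS 7d, 12.5 ± 1.71 CPM in LPS 1d and 6.36 ± 1.35 CPM in PBS 1d, and was higher in LPS 1d than in PBS 1d by 0.99 ± 0.15 on the log2 scale (edgeR adjusted p = 2.88e-07).

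Other dopaminergic markers included Chrna6, a nicotinic receptor subunit of midbrain dopaminergic terminals, which had the same order of groups as Slc6a3. Chrna6 averaged 4.48 ± 1.54 CPM in LPS 7d, 1.85 ± 0.427 CPM in LPS 1d and 1.00 ± 0.162 CPM in PBS 1d, and was higher in LPS 1d than in PBS 1d by 0.87 ± 0.33 on the log2 scale (edgeR adjusted p = 0.0242). Ret, the receptor of the glial-derived neurotrophic factor family, averaged 70.7 ± 3.31 CPM in LPS 7d, 40.1 ± 3.53 CPM in LPS 1d and 45.9 ± 1.94 CPM in PBS 1d. Slc10a4, a vesicular protein of monoaminergic and cholinergic neurons, averaged 15.8 ± 2.85 CPM in LPS 7d, 10.3 ± 1.08 CPM in LPS 1d and 13.4 ± 1.70 CPM in PBS 1d. Pitx3, which defines midbrain dopaminergic neurons, was near 0 throughout, with 5 reads in LPS 7d, 7 in LPS 1d and 2 in PBS 1d. Of the 7 markers 6 were tested: LPS 7d was higher than PBS 1d for 3 and higher than LPS 1d for 5, while LPS 1d was higher than PBS 1d for 1 and lower for 4 (Nr4a2, Aldh1a1, Ret and Slc10a4). Summed, they stood at 228 to 233 CPM in LPS 7d, 131 to 136 CPM in LPS 1d and 156 to 160 CPM in PBS 1d.

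The 6 serotonergic markers did not move together. Against PBS 1d, LPS 7d was higher for Lmx1b, and for Gchfr, which was tested only through LPS 7d, and lower for Slc17a8, the vesicular glutamate transporter that many serotonergic neurons carry, at 3.72 ± 1.35 CPM in LPS 7d, 6.22 ± 1.49 CPM in LPS 1d and 8.44 ± 0.807 CPM in PBS 1d. Lmx1b, a homeodomain factor that serotonergic neurons require, averaged 3.02 ± 0.218 CPM in LPS 7d, 1.77 ± 0.463 CPM in LPS 1d and 1.38 ± 0.288 CPM in PBS 1d. Htr1a, the serotonin autoreceptor that forebrain neurons also express, averaged 16.7 ± 0.313 CPM in LPS 7d, 18.1 ± 2.46 CPM in LPS 1d and 17.6 ± 0.848 CPM in PBS 1d, and was not called. Against LPS 1d, LPS 7d was higher for 2 and lower for 1, and LPS 1d was lower than PBS 1d for 1. Their summed level was 25.4 to 28.4 CPM in LPS 7d, 24.5 to 30.7 CPM in LPS 1d and 29.5 to 30.1 CPM in PBS 1d.

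Of 6 noradrenergic markers 5 were tested, and 3 of them, among them Tfap2b and the peptide gene Calca, were higher in LPS 7d than in either other group. Calca averaged 5.52 ± 1.02 CPM in LPS 7d, 1.61 ± 0.393 CPM in LPS 1d and 2.42 ± 0.592 CPM in PBS 1d. The galanin gene Gal, a peptide of the locus coeruleus and of the hypothalamus, was lower in both LPS groups than in PBS 1d, at 4.22 ± 0.605 CPM in LPS 7d, 4.48 ± 0.617 CPM in LPS 1d and 7.04 ± 1.40 CPM in PBS 1d. The list summed to 65.7 to 69.0 CPM in LPS 7d, 44.9 to 48.4 CPM in LPS 1d and 47.1 to 50.5 CPM in PBS 1d. Most of that sum was Adra2a, at 39.3, 38.7 and 38.3 CPM in those groups. Tfap2b, at 15.8, 1.39 and 0.902 CPM, held most of the difference between LPS 7d and the other groups.

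Markers of other regions moved with the higher monoamine genes in LPS 7d. All 7 cerebellar markers were higher in LPS 7d than in PBS 1d and LPS 1d, summing to 1275 to 1303 CPM in LPS 7d, 57.9 to 59.1 CPM in LPS 1d and 70.6 to 81.9 CPM in PBS 1d. Of these, 4 (Gabra6, Cbln3, Pcp2 and Fat2) passed the low-count filter only through LPS 7d. So did all 5 tested hindbrain markers and the midbrain markers En1 and Pax5. These genes had to be higher in LPS 7d to be tested, so their counts are not read as evidence and their levels are given as a description. Slc6a5 was at 57.8 ± 2.71 CPM in LPS 7d, 0.507 ± 0.121 CPM in LPS 1d and 0.382 ± 0.0781 CPM in PBS 1d. Midbrain markers, which include En1 and En2, summed to 46.1 to 56.1 CPM in LPS 7d, 8.01 to 9.37 CPM in LPS 1d and 9.99 to 10.2 CPM in PBS 1d. Against PBS 1d, 3 of the 6 were called higher and 1 lower in LPS 7d. Most of the LPS 7d sum was En2, which cerebellar cells also express, at 40.5 CPM in LPS 7d, 1.24 CPM in LPS 1d and 1.64 CPM in PBS 1d. Otx2 stood at 5.60, 4.84 and 5.55 CPM in those groups, and Tfap2d at 0.422, 1.09 and 1.59 CPM. The part of these regions in the monoamine gene results was not tested, and no result for LPS 7d can be given without these libraries, since all 3 carried the markers.

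Of the 9 thalamus markers, 2 were higher and 5 lower in LPS 7d than in PBS 1d, 3 higher and 3 lower than in LPS 1d, and LPS 1d was higher than PBS 1d for 2 and lower for 6. Hypothalamic markers summed to 105 to 117 CPM in LPS 7d, 75.5 to 78.3 CPM in LPS 1d and 115 to 133 CPM in PBS 1d, with 1 of 10 higher and 3 lower in LPS 7d than in PBS 1d. Striatal markers summed to 504 to 513 CPM in LPS 7d, 778 to 800 CPM in LPS 1d and 1173 to 1222 CPM in PBS 1d, and all 7 were lower in LPS 7d than in PBS 1d. Olfactory bulb markers, a list that covers another site of dopaminergic cells, summed to 16.8 to 20.5 CPM in LPS 7d, 12.0 to 13.8 CPM in LPS 1d and 36.2 to 38.6 CPM in PBS 1d, with 1 of 3 tested genes higher and 1 lower in LPS 7d than in PBS 1d. Mast cells hold serotonin and histamine, and 4 of their 5 markers were below the filter, while Hdc, which histaminergic neurons also express, was higher in LPS 1d than in PBS 1d at 11.3 ± 1.32 CPM against 8.11 ± 0.415 CPM.

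Maoa is also expressed by glial and vascular cells, and the sums of their markers were higher in LPS 7d too. Summed astrocyte markers were at 2256 to 2276 CPM in LPS 7d, 1626 to 1663 CPM in LPS 1d and 1581 to 1620 CPM in PBS 1d, and 4 of 5 were called higher in LPS 7d than in PBS 1d. Endothelial markers summed to 269 to 281 CPM in LPS 7d, 214 to 218 CPM in LPS 1d and 218 to 228 CPM in PBS 1d, with 4 of 5 called higher in LPS 7d than in PBS 1d. Pericyte markers summed to 298 to 314 CPM in LPS 7d, 214 to 226 CPM in LPS 1d and 207 to 212 CPM in PBS 1d, with 3 of 5 called higher in LPS 7d than in PBS 1d. Against LPS 1d, LPS 7d was called higher for 4 astrocyte markers and lower for 1. For the endothelial markers that comparison gave 4 higher and none lower, and for the pericyte markers 2 higher and 2 lower. The part of these cells in the Maoa result was not tested.

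**Figure D5:**
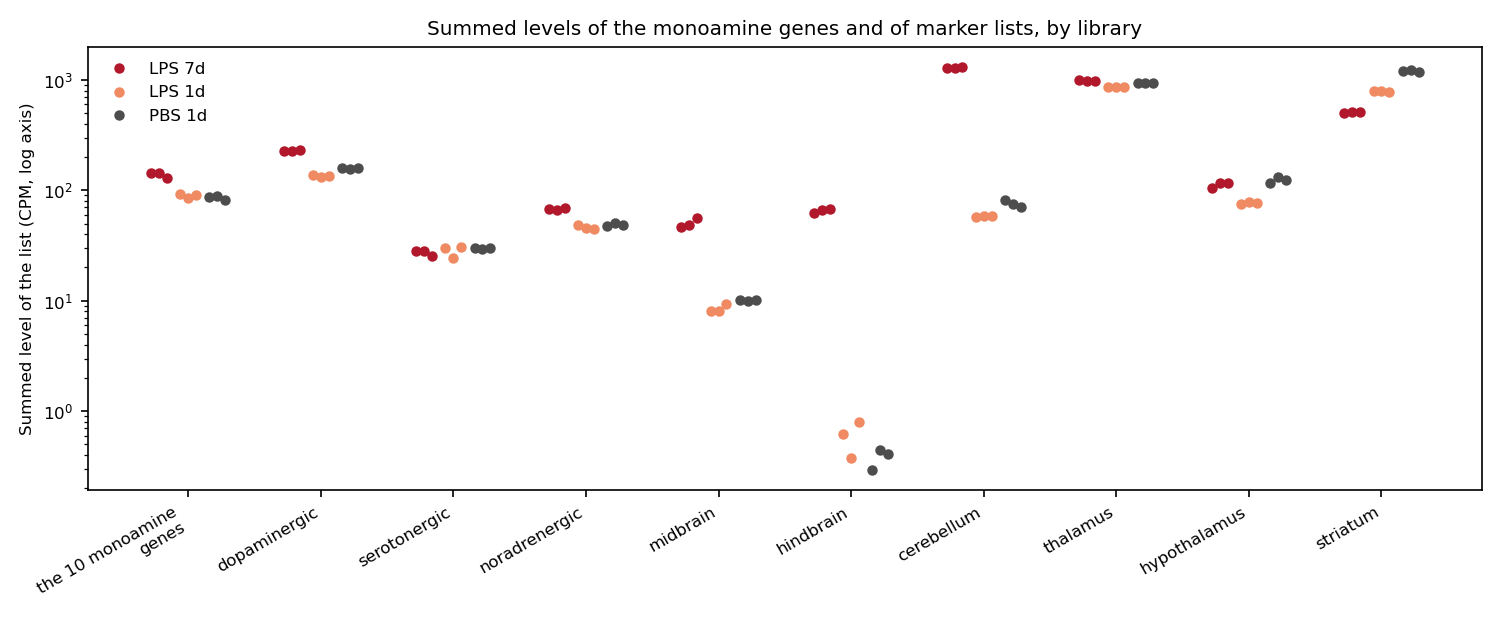
Summed level (CPM, log axis) of the 10 monoamine genes and of 9 marker lists in each library of LPS 7d, LPS 1d and PBS 1d. The hindbrain sum is 61.9 to 68.2 CPM in LPS 7d and under 1 CPM in every other library, while the serotonergic sum overlaps between LPS 7d and LPS 1d.

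The genes most similar in pattern to 5 members were ranked by Pearson's r of log2 CPM over the 9 libraries, among 14391 tested genes whose highest group mean was at least 1 CPM. The libraries fall into 3 groups, so a high r mainly restates the group means. For Slc6a3 the nearest were Zbtb18, Il20rb, Cyp4f16 and Pxn (r = 0.99 each). Zbtb18, a transcriptional repressor, averaged 266 CPM in LPS 7d, 198 CPM in LPS 1d and 156 CPM in PBS 1d. Il20rb, a cytokine receptor subunit, averaged 13.9 CPM in LPS 7d, 1.02 CPM in LPS 1d and 0.125 CPM in PBS 1d, the same order with a wider range. For Th the nearest were Ccndbp1, Tfeb, Atg4d and Nck1 (r = 0.99 each). For Dbh they were Ermn, Fzd1, Meis1 and Pacsin3 (r = 0.98 each), of which Meis1 averaged 16.2 CPM in LPS 7d, 4.44 CPM in LPS 1d and 7.76 CPM in PBS 1d. For Tph2 they included Decr2 (r = 0.97), and Syne2 and Aga (r = 0.96 each). For Maoa they were Asl, Nars and Cavin1 (r = 0.95 each) and Aco1 (r = 0.94).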

How the data were processed

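RNA was sequenced in 9 PVT libraries, 3 per group. Per the labels' protocols, Trizol served to extract total RNA and a TruSeq RNA kit to build libraries. The deposited count values are reads per gene as the authors made them; the submitters' processing notes name TopHat2, HISAT2, HTSeq and GRCm39, without versions; strandedness and the choice of aligner are not stated there. The deposited FPKM values were scaled by the authors by gene length and library total, and recomputing them gave a largest relative difference of 1.6e-07. Gene lengths and positions are other deposited values and were not changed. No other gene in the table overlaps a member.

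Of 21899 genes, 14837 passed filterByExpr (minimum count 10) and were fitted with edgeR 4.0.16 (R 4.3.3) by quasi-likelihood on all 9 libraries with TMM factors. Tests were two-sided, with Benjamini-Hochberg adjustment over all tested genes and a threshold of 0.05. The common biological coefficient of variation was 4.15%. CPM are scaled by TMM library size. Each SE equals the absolute log2 fold change over the root of F. Genes below the filter were compared by counts, 95% counting intervals and exact permutation tests. Each library was treated as 1 sample. Replicates of 1 group differed beyond sampling noise (ratio of chi-square to its degrees of freedom 2.02 to 3.71), which does not show whether they came from separate animals. The steps were tested on simulated data.

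The members and the gene lists were chosen with earlier results of these data known. All members are named, with up to 4 genes of each other list by smallest adjusted p in any comparison and the 4 genes most correlated with each of 5 members. Gch1, Pts, Maob, Tph1, Pnmt, Slc18a1, Pitx3, Nr4a2, Gabra6, Slc6a5 and genes named to spell out a count were added for their roles, some with values seen. Some genes that these rules name are not reported here. Alternatives were library-total and upper-quartile scaling, DESeq2 1.42.0, no filter, each library left out, only the groups compared, and a replicate block.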

Additional observations from a re-analysis of the deposited data

How the results depend on the processing

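Of the log2 fold changes of the 9 tested members under the alternatives, 384 kept their direction and side of the threshold. A further 5 passed it where the reported value did not, 9 no longer passed it and 3 turned their sign. Each log2 fold change was counted once under each alternative, and left out where the member was not tested. The tally includes LPS 7d comparisons of Dbh, Tph2, Slc6a2 and Slc6a4, which were tested only through LPS 7d. Those are not read as evidence of stability. The count of called members in LPS 1d against PBS 1d was 3 as reported and 1, Slc6a3, when only those groups were fitted, where Dbh and Slc6a2 did not pass the filter for low counts. Leaving out each library in turn gave 1 to 3 called members in LPS 1d against PBS 1d, the lowest without PBS 1d replicate 1 or LPS 1d replicate 2, 8 to 9 in LPS 7d against PBS 1d and 8 to 9 in LPS 7d against LPS 1d. For the cofactor and handling genes the same gave 7 to 11, 5 to 6 and 10 to 12 calls in those 3 comparisons.

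The signs that turned were of values not called. Leaving out each library in turn, the log2 fold change in LPS 1d against PBS 1d ran from -0.12 to 0.0031 for Ddc, the highest without PBS 1d replicate 1. For Tph2 it ran from -0.27 without LPS 1d replicate 1 to 0.99 without PBS 1d replicate 1, and was -0.14 without PBS 1d replicate 2. Maoa in LPS 7d against LPS 1d was called with library totals, upper-quartile factors (0.17, edgeR adjusted p = 0.0339), only those groups fitted, and without LPS 1d replicate 1 or LPS 7d replicate 3. The cause was not tested.

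The replicate numbers in the labels do not pair the samples: deviations of same-numbered libraries from their group means correlated at -0.0232 to 0.027 over 9 pairs. With the number as a replicate block, 3 members were called in LPS 1d against PBS 1d, 9 in LPS 7d against PBS 1d and 8 in LPS 7d against LPS 1d, and 10, 6 and 10 cofactor and handling genes, as without it. Depth limits Fev, Slc6a4, Slc6a2, Tph2 and Dbh, which held few reads outside LPS 7d.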
